A study of Arabidopsis thaliana with 12 samples.

Results

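The tau and phi glutathione transferase genes of Arabidopsis thaliana were followed in whole seedlings treated with chitin, the polymer of fungal cell walls, which plants perceive as a sign of infection. The members were taken by gene code from the count table and are GSTU1 to GSTU28 of the tau class and GSTF2, GSTF3 and GSTF6 to GSTF14 of the phi class, 39 genes of the 32678 in the table. The family was chosen by earlier results of these data, its chitin against mock fold changes, so the chitin folds below are a description of the genes and are read as no support for a response of the family. The 12 RNA-seq libraries form 4 groups of 3, namely mapkkk5-1 seedlings (written mapkkk5) given chitin, mapkkk5 given mock, wild type Col-0 (written Col) given chitin, and Col given mock. All seedlings were 8 days old, were kept in liquid medium for 3 h beforehand, and were treated for 3 h in 3 independent experiments. The chitin dose stands as 40 mM in one label and 40 µM in another. The mutant is a single allele of MAPKKK5, which encodes a MAP kinase kinase kinase, and the labels do not say what kind of mutation it is.

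Glutathione transferases join the tripeptide glutathione to reactive or toxic compounds, and some instead bind and carry small molecules without changing them. The tau and phi classes are the large plant classes, and many of their genes stand side by side on the chromosome as tandem copies. Members are known for detoxifying herbicides and oxidised lipids, and several take part in making or moving defence compounds and pigments. Conjugates are carried into the vacuole by ABCC transporters.

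Totals per library were 15455836 to 20179428 reads, so that 3 reads, the limit a count of 0 allows by counting error alone, amount to 0.152 to 0.2 CPM (counts scaled to the TMM-adjusted library total). The targeted gene MAPKKK5 had 26.7, 32.9 and 13.6 CPM in the chitin libraries with the label mapkkk5, against 3.90, 5.29 and 3.81 CPM in the mock libraries with that label. In Col it had 39.9, 37.5 and 45.3 CPM after chitin, against 28.1, 25.7 and 21.7 CPM in mock. Libraries with the mutant's label therefore held reads of the gene, most of all after chitin, and each genotype comparison rests on those labels. Of the 39 members, 38 passed the expression filter, and GSTU15 had 0 reads in all 12 libraries. In the following, "rose" and "fell" are used of members with an adjusted p below 0.05 in edgeR's quasi-likelihood test over 20994 genes, changes are log2 fold changes ± SE, and CPM levels are given per library or as mean ± SD (n = 3).

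After chitin 19 members rose and 8 fell in mapkkk5, and 19 rose and 8 fell in Col. The same 19 genes rose in both genotypes and the same 8 fell in both, and 11 of the tested members passed in neither. This fit has no block for the experiment. With the experiment as a block, GSTF12 also passed as lower in both genotypes. GSTU22 then also passed as higher in mapkkk5 only, and GSTU6, GSTU8 and GSTU19 in Col only. In the fit without a block 34.8% of all genes tested were called in mapkkk5 (19.1% raised, 15.7% lowered) and 38.5% in Col (21.2% raised, 17.3% lowered). Chitin and mock libraries did not overlap for 29 members in each genotype, with 20 higher and 9 lower after chitin in mapkkk5 (23.9% and 22.3% of all genes tested) and 21 higher and 8 lower in Col (26.2% and 23.2%). The median change of the 38 tested members was 0.52 in mapkkk5 and 0.56 in Col, beside 0.00 in both over all genes tested. Of the 27 tested tau genes 12 rose and 6 fell in each genotype, and of the 11 phi genes 7 rose and 2 fell. These are whole seedlings, in which fewer cells of a type and less RNA per cell cannot be told apart. Markers of organs moved with the treatment as well. The summed level of 6 root markers was 1388 to 2107 CPM in mapkkk5 chitin against 3015 to 4755 CPM in mapkkk5 mock, and 1533 to 2878 CPM in Col chitin against 3563 to 5274 CPM in Col mock. Most of that sum was PYK10, which fell in both genotypes, while CASP2 and EXPA7 rose in Col. The summed level of 5 green tissue markers was 7129 to 9657 CPM in mapkkk5 chitin against 8884 to 12083 CPM in mapkkk5 mock, and 7686 to 8705 CPM in Col chitin against 11139 to 12375 CPM in Col mock. Of these, CA1 fell in both genotypes and RBCS1A in Col. The summed level of 7 seed storage markers was 0.213 to 81.9 CPM in mapkkk5 chitin against 0.764 to 76.6 CPM in mapkkk5 mock, and 0.253 to 0.94 CPM in Col chitin against 0.589 to 23.2 CPM in Col mock, with CRU3 at 0 in all Col chitin libraries and none of the list called. The part of these shifts in the changes of the members was not tested.

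**Figure D1:**
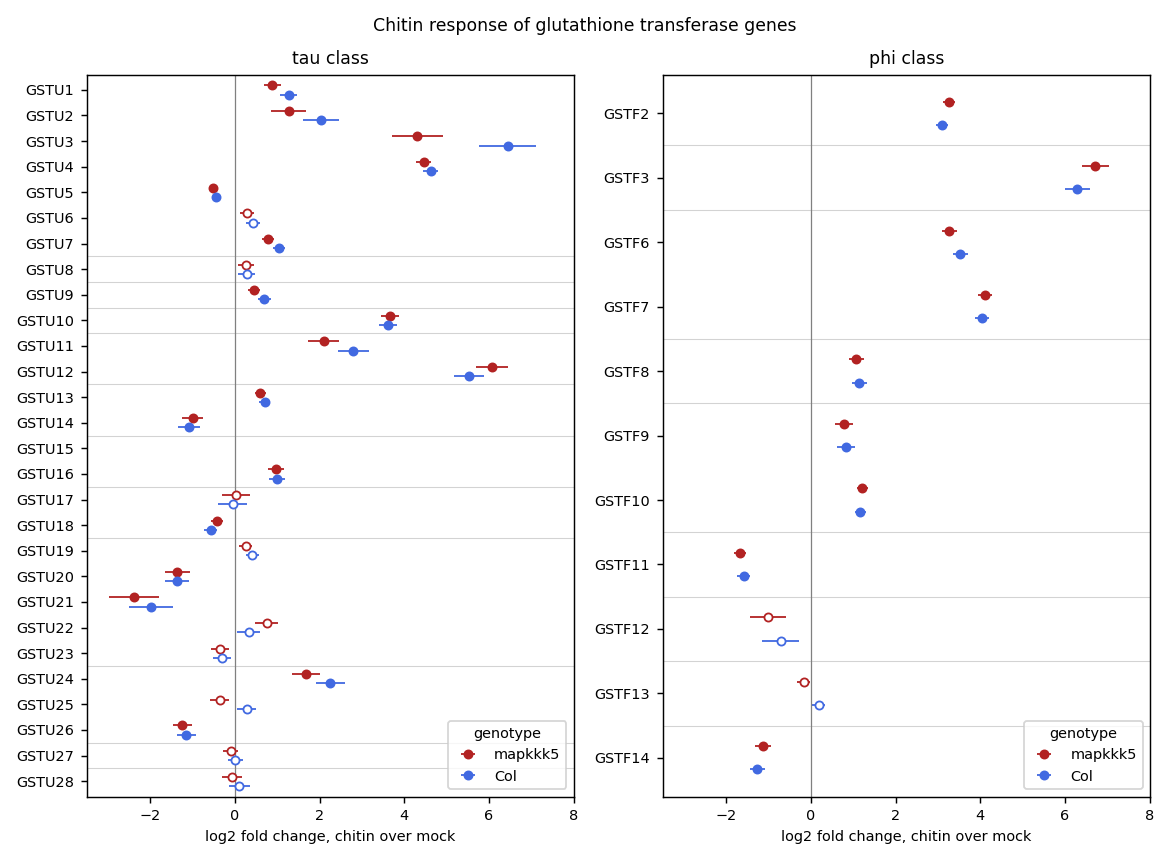
Log2 fold change of chitin over mock (x axis) for each tau gene (left) and phi gene (right) in mapkkk5 (upper point of each pair) and Col (lower point), with bars of 1 SE from 3 libraries per group. Filled points passed an adjusted p of 0.05, grey lines divide tandem groups, and GSTU15 has no value. On average over the 2 genotypes, the largest rises are GSTF3, GSTU12 and GSTU3 and the largest fall is GSTU21.

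GSTF6 (AT1G02930) had the highest level of any member after chitin in both genotypes. It forms a tandem pair with GSTF7 (AT1G02920) on chromosome 1, and the 2 genes span 3.9 kb on the minus strand. GSTF6 takes part in camalexin synthesis, the main indole phytoalexin of Arabidopsis, by joining glutathione to an indole intermediate. It was at 3129.6, 3354 and 4552 CPM in the mapkkk5 chitin libraries, against 432, 343 and 368 CPM in mapkkk5 mock, and at 3760.3, 5203 and 4334 CPM in the Col chitin libraries, against 428, 358 and 365 CPM in Col mock. GSTF7, its neighbour, was at 2164, 2250.4 and 3006 CPM in the mapkkk5 chitin libraries, against 160.4, 141 and 127 CPM in mapkkk5 mock, and at 2721, 3259.8 and 2862 CPM in the Col chitin libraries, against 188, 176 and 171 CPM in Col mock. In both genotypes every chitin library was far above every mock library for both genes. GSTF6 rose by 3.27 ± 0.18 in mapkkk5 and by 3.53 ± 0.18 in Col. GSTF7, which started lower, rose by 4.11 ± 0.16 in mapkkk5 and by 4.04 ± 0.16 in Col. The proteins are 93.3% identical and the coding sequences 94.3%, the transcripts share an exact run of 116 bases, and reads from such runs could be divided between the genes in a way that counts per gene do not show. Summed before the fit, the pair rose by 3.55 ± 0.17 in mapkkk5 and by 3.71 ± 0.18 in Col.

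The stretch of 300 bases before the start of GSTF7 in RefSeq TAIR10.1 is shown as that of the phi gene with the largest rise among the abundant members. It holds TTGAC, the core of the W-box bound by WRKY factors, at 3 places over both strands and TGACG, the core of the as-1 element bound by TGA factors, at none. Capitals mark both motifs on either strand (GTCAA and CGTCA when read on the other one). The stretch lies on the minus strand at chr1:659981-660280 and reads 5′ to 3′ towards the gene.
GSTF7: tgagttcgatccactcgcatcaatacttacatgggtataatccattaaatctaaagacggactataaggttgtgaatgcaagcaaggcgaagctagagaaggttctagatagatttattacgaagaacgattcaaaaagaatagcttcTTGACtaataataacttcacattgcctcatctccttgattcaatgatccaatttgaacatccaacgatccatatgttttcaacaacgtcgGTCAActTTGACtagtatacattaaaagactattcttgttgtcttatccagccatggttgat

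GSTF2 (AT4G02520) and GSTF3 (AT2G02930) form a second near-identical pair, on chromosomes 4 and 2. GSTF2 is known as a carrier that binds camalexin and other small molecules as well as an enzyme. It was at 2413, 2577 and 2932 CPM in the mapkkk5 chitin libraries, against 267, 302 and 254 CPM in mapkkk5 mock, and at 3173, 3612 and 2874 CPM in the Col chitin libraries, against 421, 351 and 366 CPM in Col mock. GSTF3 was at 26.7, 35.8 and 36.2 CPM in the mapkkk5 chitin libraries, against 0.334, 0.164 and 0.437 CPM in mapkkk5 mock, and at 41.8, 55.7 and 30.3 CPM in the Col chitin libraries, against 0.492, 0.648 and 0.468 CPM in Col mock, and its mock libraries held 3 to 11 reads. The groups were apart for both genes in both genotypes, and GSTF3 was near the limit of detection without chitin. GSTF2 rose by 3.27 ± 0.14 in mapkkk5 and by 3.08 ± 0.14 in Col. GSTF3 rose by 6.71 ± 0.32 in mapkkk5 and by 6.29 ± 0.29 in Col, the largest change of any member on average over the genotypes. The proteins are 92.5% identical and the transcripts share an exact run of 74 bases, so misassigned GSTF2 reads could weigh on the low mock counts of GSTF3, which was not tested. GSTF2 also overlaps TOC159, a chloroplast import receptor gene on the opposite strand, over 60.5% of its exons; TOC159 itself fell by 0.53 ± 0.13 in mapkkk5 and by 0.51 ± 0.13 in Col. Summed, GSTF2 and GSTF3 rose by 3.28 ± 0.14 in mapkkk5 and by 3.10 ± 0.14 in Col, close to GSTF2 alone.

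The same 2 motifs are marked in the stretch before GSTF3, shown as that of the member with the largest mean rise. It lies on the minus strand at chr2:852322-852621 and is 51.6% identical to the stretch before GSTF2, which overlaps the neighbouring gene AT4G02530.
GSTF3: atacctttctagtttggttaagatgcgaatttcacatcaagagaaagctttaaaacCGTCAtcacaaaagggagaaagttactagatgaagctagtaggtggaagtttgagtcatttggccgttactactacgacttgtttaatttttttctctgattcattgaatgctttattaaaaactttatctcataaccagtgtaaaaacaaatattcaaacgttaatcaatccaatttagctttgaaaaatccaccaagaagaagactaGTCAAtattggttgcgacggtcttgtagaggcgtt

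**Figure D2:**
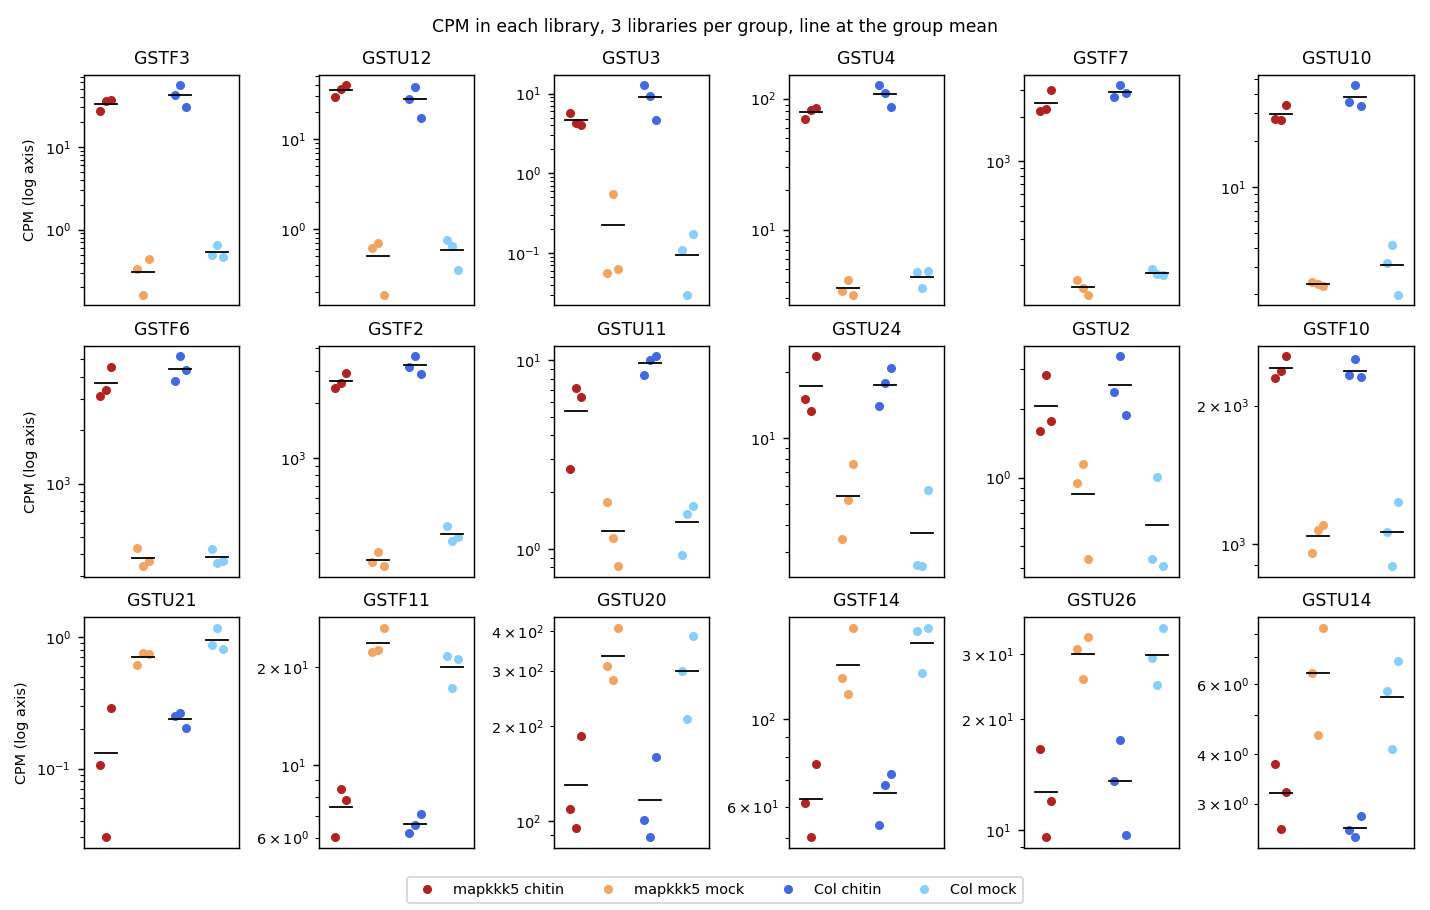
CPM (log axis, its own range in each panel) in every library for the 12 members with the largest rises and the 6 with the largest falls, with groups from left to right mapkkk5 chitin, mapkkk5 mock, Col chitin and Col mock. Dots are libraries, a library with 0 reads is drawn at 0.03 CPM, and black lines are group means. In all 18 panels the chitin libraries do not overlap the mock libraries of the same genotype.

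The other phi genes that rose were GSTF8, GSTF9 and GSTF10, of which GSTF9 and GSTF10 had the highest mock levels of all members. GSTF9 (AT2G30860) and GSTF10 (AT2G30870, also known as ERD13 from its response to drying) stand together within 3.79 kb on chromosome 2. GSTF10 was at 2297, 2382 and 2558 CPM in the mapkkk5 chitin libraries, against 958, 1073 and 1100.0 CPM in mapkkk5 mock, and at 2328, 2521 and 2302 CPM in the Col chitin libraries, against 1065, 896 and 1234 CPM in Col mock. It rose by 1.21 ± 0.13 in mapkkk5 and by 1.16 ± 0.13 in Col, and all chitin libraries were above all mock libraries. GSTF9 averaged 2329.5 ± 462 CPM in mapkkk5 chitin and 1358 ± 250.0 CPM in mapkkk5 mock, and 2373 ± 493 CPM in Col chitin and 1343 ± 310.4 CPM in Col mock. It rose by 0.78 ± 0.21 in mapkkk5 and by 0.82 ± 0.21 in Col. Without mapkkk5 mock replicate 1 the GSTF9 call in mapkkk5 was lost (0.63, adjusted p = 0.0565 in edgeR's quasi-likelihood test, with 1.8e-05 to 0.079 over all alternatives). GSTF8 (AT2G47730), long used as a stress-inducible reporter gene, averaged 522 ± 118 CPM in mapkkk5 chitin and 249 ± 37.9 CPM in mapkkk5 mock, and 522 ± 96.1 CPM in Col chitin and 236 ± 15.6 CPM in Col mock. It rose by 1.07 ± 0.18 in mapkkk5 and by 1.14 ± 0.18 in Col.

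2 phi genes fell. GSTF11 (AT3G03190), which is linked to the synthesis of aliphatic glucosinolates, the methionine-derived defence compounds, was at 6.01, 8.46 and 7.8 CPM in the mapkkk5 chitin libraries, against 22.2, 22.5 and 26.4 CPM in mapkkk5 mock, and at 6.21, 6.53 and 7.1 CPM in the Col chitin libraries, against 21.6, 17.2 and 21.1 CPM in Col mock. It fell by 1.67 ± 0.15 in mapkkk5 and by 1.59 ± 0.15 in Col, with no overlap between treatments. GSTF11 lies wholly within NAC045 on the opposite strand, which averaged 1.29 CPM in mapkkk5 chitin and 1.37 CPM in mapkkk5 mock, and 1.92 CPM in Col chitin and 1.18 CPM in Col mock, and was not called. GSTF14 (AT1G49860) was at 61.2, 50.2 and 77.1 CPM in the mapkkk5 chitin libraries, against 127, 116 and 170.0 CPM in mapkkk5 mock, and at 54, 68.1 and 72.7 CPM in the Col chitin libraries, against 167, 130.5 and 170.3 CPM in Col mock. It fell by 1.13 ± 0.18 in mapkkk5 and by 1.26 ± 0.19 in Col, again with the treatments apart.

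GSTF12 (AT5G17220), known as TRANSPARENT TESTA 19 and needed to bring anthocyanin pigments to the vacuole, was at 7.87, 7.67 and 13.9 CPM in the mapkkk5 chitin libraries, against 15.7, 11.6 and 32 CPM in mapkkk5 mock, and at 5.39, 5.47 and 10.4 CPM in the Col chitin libraries, against 10.4, 6.37 and 18.5 CPM in Col mock. In each group the library of experiment 3 was the highest, and every mock library was above the chitin library of the same genotype and experiment. Its changes of -1.01 ± 0.42 in mapkkk5 and -0.71 ± 0.44 in Col did not pass (adjusted p = 0.0831 and 0.221 by edgeR's quasi-likelihood test). With the experiment as a block both passed, at -0.95 ± 0.14 in mapkkk5 (adjusted p = 7.25e-05, with 7.25e-05 to 0.428 over the alternatives) and -0.70 ± 0.15 in Col (adjusted p = 0.00138, with 0.00138 to 0.731 over the alternatives). In mapkkk5 it also passed without chitin replicate 3 (adjusted p = 0.0497), without mock replicate 2 (0.042) or without experiment 3 in all groups (0.0329). GSTF13 (AT3G62760) had 4.95 to 7.69 CPM over the 12 libraries and did not pass in either genotype.

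The largest tandem group of the tau class, GSTU1 to GSTU7, spans 14.6 kb of chromosome 2 on the minus strand, in the order GSTU7 to GSTU1 along the chromosome. In both genotypes 5 of its 7 genes rose (GSTU1, GSTU2, GSTU3, GSTU4 and GSTU7), GSTU5 fell, and GSTU6 did not pass. GSTU4 (AT2G29460) was at 69.6, 81.5 and 84.3 CPM in the mapkkk5 chitin libraries, against 3.4, 4.09 and 3.19 CPM in mapkkk5 mock, and at 127, 111 and 86.1 CPM in the Col chitin libraries, against 4.7, 3.6 and 4.85 CPM in Col mock. It rose by 4.46 ± 0.18 in mapkkk5 and by 4.62 ± 0.17 in Col. GSTU5 (AT2G29450), which lies next to it and is known as an auxin-inducible gene, averaged 106 ± 9.56 CPM in mapkkk5 chitin and 151 ± 11.4 CPM in mapkkk5 mock, and 101 ± 5.5 CPM in Col chitin and 137 ± 14.3 CPM in Col mock. GSTU5 fell by 0.50 ± 0.11 in mapkkk5 and by 0.44 ± 0.11 in Col. The neighbours thus moved in opposite directions, and per kb of exon GSTU4 averaged 66.7 ± 6.65 CPM in mapkkk5 chitin and 91.8 ± 17.5 CPM in Col chitin, while GSTU5 averaged 83.8 ± 7.53 CPM per kb in mapkkk5 chitin and 79.3 ± 4.33 in Col chitin.

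GSTU3 (AT2G29470) was almost silent without chitin. It had 108, 75 and 70 reads in the mapkkk5 chitin libraries, against 1, 10 and 1 reads in mapkkk5 mock, and 204, 141 and 91 reads in Col chitin, against 2, 0 and 3 reads in Col mock. As CPM it was at 5.74, 4.23 and 4.02 CPM in the mapkkk5 chitin libraries, against 0.0557, 0.546 and 0.0625 CPM in mapkkk5 mock, and at 12.8, 9.4 and 4.61 CPM in the Col chitin libraries, against 0.109, 0 and 0.175 CPM in Col mock. Its rise was 4.31 ± 0.60 in mapkkk5 and 6.44 ± 0.67 in Col. Since the mock counts are so few, single libraries set the size of the rise, which was 6.14 in mapkkk5 without mock replicate 2 and 7.12 in Col without mock replicate 3, and ran over all alternatives from 3.67 up to 6.21 in mapkkk5 and from 5.85 up to 7.44 in Col. The stretch before GSTU3 is shown since GSTU3 has the fewest mock reads of the members that rose. It is on the minus strand at chr2:12629641-12629940 and holds TTGAC at 2 places and TGACG at 1.
GSTU3: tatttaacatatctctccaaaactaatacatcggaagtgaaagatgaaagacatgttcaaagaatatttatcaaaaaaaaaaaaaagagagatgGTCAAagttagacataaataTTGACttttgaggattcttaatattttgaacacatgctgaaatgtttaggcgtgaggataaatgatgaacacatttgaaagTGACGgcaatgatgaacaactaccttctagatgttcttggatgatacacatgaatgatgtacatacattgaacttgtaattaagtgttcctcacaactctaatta

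GSTU2 (AT2G29480) was at 1.59, 2.82 and 1.78 CPM in the mapkkk5 chitin libraries, against 0.947, 1.15 and 0.437 CPM in mapkkk5 mock, and at 2.38, 3.4 and 1.88 CPM in the Col chitin libraries, against 0.438, 1 and 0.409 CPM in Col mock. It rose by 1.27 ± 0.41 in mapkkk5 and by 2.04 ± 0.43 in Col. The mapkkk5 call was lost without chitin replicate 2 (adjusted p = 0.116, edgeR's quasi-likelihood test), mock replicate 1 (0.0602) or mock replicate 3 (0.111), and without any 1 of the 3 experiments (0.0651 to 0.108), with 0.00208 to 0.116 over all alternatives. GSTU1 (AT2G29490), 81.3% identical to it as a protein, was at 12.5, 12.5 and 14.1 CPM in the mapkkk5 chitin libraries, against 7.35, 7.26 and 6.56 CPM in mapkkk5 mock, and at 20.7, 23.1 and 11.7 CPM in the Col chitin libraries, against 7.66, 8.07 and 7.07 CPM in Col mock. It rose by 0.88 ± 0.20 in mapkkk5 and by 1.28 ± 0.20 in Col. GSTU7 (AT2G29420) rose by 0.78 ± 0.15 in mapkkk5 and by 1.05 ± 0.15 in Col; it overlaps MTPB1 on the opposite strand, a metal tolerance protein gene that itself rose by 1.32 ± 0.26 in mapkkk5 and by 1.49 ± 0.26 in Col and averaged 3.40 CPM at most in any group. GSTU6 had a log2 fold change of 0.29 ± 0.17 in mapkkk5 and of 0.43 ± 0.17 in Col without passing, and passed in mapkkk5 without experiment 2 (adjusted p = 0.0498, with 0.0498 to 0.685 over all alternatives) and in Col with the experiment as a block (adjusted p = 0.0239) or without Col mock replicate 3 (0.0419), within 0.0239 to 0.269 over all alternatives.

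**Figure D3:**
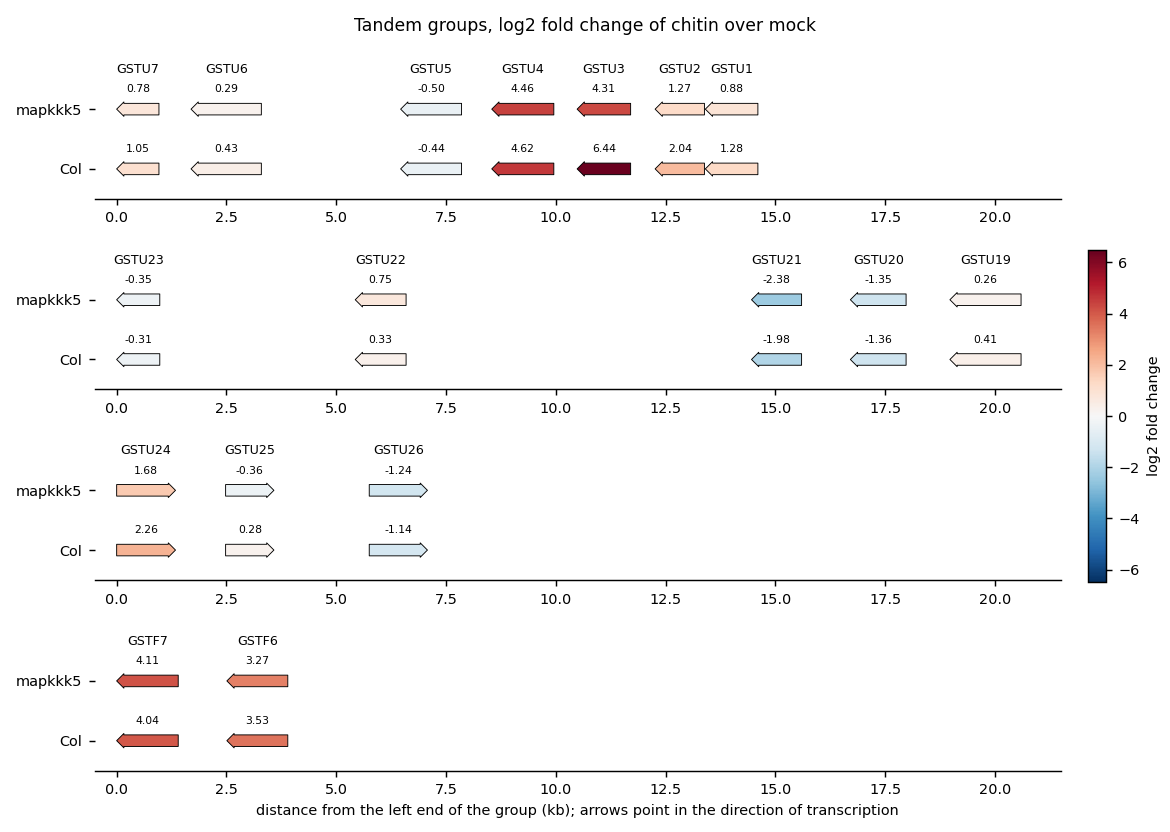
The tandem groups GSTU1 to GSTU7, GSTU19 to GSTU23, GSTU24 to GSTU26 and GSTF6 with GSTF7, drawn to scale as distance in kb from the left end of each group, in mapkkk5 (upper row) and Col (lower row). Arrows point in the direction of transcription, and the colour and the number above give the log2 fold change of chitin over mock. Genes that rose and genes that fell share a group in GSTU1 to GSTU7 and in GSTU24 to GSTU26.

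Outside that group GSTU12 and GSTU10 rose most among the tau genes. GSTU12 (AT1G69920) and GSTU11 (AT1G69930) are neighbours within 4.57 kb of chromosome 1. GSTU12 was at 29.4, 36.2 and 39.8 CPM in the mapkkk5 chitin libraries, against 0.612, 0.709 and 0.187 CPM in mapkkk5 mock, and at 28, 37.9 and 17.3 CPM in the Col chitin libraries, against 0.766, 0.648 and 0.351 CPM in Col mock. It rose by 6.07 ± 0.37 in mapkkk5 and by 5.53 ± 0.37 in Col, with all mock libraries below 1 CPM. GSTU11 was at 2.66, 7.16 and 6.37 CPM in the mapkkk5 chitin libraries, against 1.78, 1.15 and 0.812 CPM in mapkkk5 mock, and at 8.4, 10 and 10.5 CPM in the Col chitin libraries, against 0.93, 1.53 and 1.69 CPM in Col mock. Its rise was 2.10 ± 0.37 in mapkkk5 and 2.80 ± 0.36 in Col, and the first mapkkk5 chitin library lay nearest to mock. Without experiment 1 in all groups the rise in mapkkk5 was 2.77. GSTU10 (AT1G74590), which stands alone, was at 27.6, 27.2 and 34.1 CPM in the mapkkk5 chitin libraries, against 2.39, 2.35 and 2.25 CPM in mapkkk5 mock, and at 35.7, 45.9 and 33.5 CPM in the Col chitin libraries, against 3.17, 4.18 and 1.99 CPM in Col mock. It rose by 3.66 ± 0.22 in mapkkk5 and by 3.62 ± 0.21 in Col, and the treatments did not overlap. The stretch before GSTU12 is shown as that of the tau gene with the largest mean rise. It lies on the minus strand at chr1:26335631-26335930 and holds TTGAC at 2 places and TGACG at none.
GSTU12: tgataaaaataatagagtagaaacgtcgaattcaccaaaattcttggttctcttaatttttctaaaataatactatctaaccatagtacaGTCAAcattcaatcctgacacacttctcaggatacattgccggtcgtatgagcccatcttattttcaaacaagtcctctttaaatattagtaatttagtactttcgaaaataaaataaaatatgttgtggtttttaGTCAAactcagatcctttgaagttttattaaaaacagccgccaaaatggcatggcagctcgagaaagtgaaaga

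The 3 genes of the group GSTU24 to GSTU26 on chromosome 1 each did something else. GSTU24 and GSTU25 are known for acting on the explosive TNT. GSTU24 (AT1G17170) was at 15, 13.2 and 23.5 CPM in the mapkkk5 chitin libraries, against 3.45, 5.18 and 7.62 CPM in mapkkk5 mock, and at 13.9, 17.7 and 20.8 CPM in the Col chitin libraries, against 2.63, 2.59 and 5.79 CPM in Col mock. It rose by 1.68 ± 0.33 in mapkkk5 and by 2.26 ± 0.34 in Col. GSTU26 (AT1G17190) was at 16.5, 9.53 and 11.9 CPM in the mapkkk5 chitin libraries, against 31, 25.6 and 33.4 CPM in mapkkk5 mock, and at 13.5, 17.5 and 9.68 CPM in the Col chitin libraries, against 29.3, 24.8 and 35.3 CPM in Col mock. It fell by 1.24 ± 0.22 in mapkkk5 and by 1.14 ± 0.22 in Col, and for both genes the treatments were apart. GSTU25 (AT1G17180), between them, was at 3.24, 2.14 and 4.02 CPM in the mapkkk5 chitin libraries, against 4.45, 3.87 and 3.75 CPM in mapkkk5 mock, and at 3.89, 5.27 and 4.21 CPM in the Col chitin libraries, against 3.45, 3.95 and 3.56 CPM in Col mock, with overlapping treatments and no call in both genotypes.

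In the group GSTU19 to GSTU23, over 20.6 kb of chromosome 1, no gene rose in the fit without a block, and GSTU20 and GSTU21 fell. GSTU20 (AT1G78370), linked like GSTF11 to aliphatic glucosinolates, was at 109, 94.9 and 186 CPM in the mapkkk5 chitin libraries, against 309.5, 279 and 410.0 CPM in mapkkk5 mock, and at 101, 88.7 and 159 CPM in the Col chitin libraries, against 299.9, 210.4 and 386 CPM in Col mock. It fell by 1.35 ± 0.29 in mapkkk5 and by 1.36 ± 0.29 in Col. GSTU21 (AT1G78360) was at 0.106, 0 and 0.287 CPM in the mapkkk5 chitin libraries, against 0.612, 0.764 and 0.75 CPM in mapkkk5 mock, and at 0.251, 0.267 and 0.203 CPM in the Col chitin libraries, against 0.875, 1.18 and 0.818 CPM in Col mock, which is 0 to 20 reads per library. It fell by 2.38 ± 0.59 in mapkkk5 and by 1.98 ± 0.52 in Col, and by 3.53 in mapkkk5 without chitin replicate 3. Without experiment 2 the change of GSTU21 in mapkkk5 was -1.77 and did not pass (adjusted p = 0.0576, edgeR's quasi-likelihood test). Without experiment 1 its call was lost in mapkkk5 (adjusted p = 0.0807) and in Col (0.0818) by the same test. GSTU19 (AT1G78380), an abundant enzyme with broad activity on foreign compounds, averaged 371 ± 72.3 CPM in mapkkk5 chitin and 309 ± 31.6 CPM in mapkkk5 mock, and 404 ± 50.5 CPM in Col chitin and 305 ± 35.9 CPM in Col mock. Its change of 0.41 ± 0.15 in Col just missed the threshold (adjusted p = 0.0503, edgeR's quasi-likelihood test) and passed with the block (0.00399), with DESeq2 (0.0427) and without any of 4 single libraries, within 0.00399 to 0.188 over all alternatives. Those 4 were mapkkk5 chitin replicates 1 and 2 (adjusted p = 0.0382 and 0.0244), Col chitin replicate 3 (0.0382) and Col mock replicate 1 (0.0384). In mapkkk5 its change of 0.26 ± 0.15 passed only without chitin replicate 2 (adjusted p = 0.0471). GSTU22 had a log2 fold change of 0.75 ± 0.28 in mapkkk5 (adjusted p = 0.0502) and passed with the block (0.0342) and without Col chitin replicate 2 (0.0256) or 3 (0.0397), within 0.0256 to 0.256 over all alternatives. GSTU22 in Col (0.33 ± 0.27) and GSTU23 in both genotypes did not pass.

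3 further tau pairs stand on chromosome 1. GSTU13 (AT1G27130), which acts in the defence pathway that breaks down indole glucosinolates, averaged 128 ± 11.1 CPM in mapkkk5 chitin and 84.8 ± 5.84 CPM in mapkkk5 mock, and 143 ± 23.7 CPM in Col chitin and 87.7 ± 8.44 CPM in Col mock. It rose by 0.60 ± 0.13 in mapkkk5 and by 0.71 ± 0.13 in Col. Its neighbour GSTU14 (AT1G27140) was at 3.77, 2.6 and 3.21 CPM in the mapkkk5 chitin libraries, against 6.4, 4.47 and 8.31 CPM in mapkkk5 mock, and at 2.57, 2.47 and 2.79 CPM in the Col chitin libraries, against 5.74, 4.13 and 6.84 CPM in Col mock. GSTU14 fell by 0.99 ± 0.25 in mapkkk5 and by 1.09 ± 0.26 in Col, opposite to GSTU13. GSTU16 (AT1G59700) rose by 0.97 ± 0.18 in mapkkk5 and by 0.99 ± 0.19 in Col beside the undetected GSTU15 (AT1G59670). GSTU18 (AT1G10360) fell by 0.42 ± 0.15 in mapkkk5 and by 0.57 ± 0.15 in Col. The mapkkk5 call of GSTU18 was the weakest of all, lost without any of 8 of the 12 single libraries, namely mapkkk5 chitin replicate 1 or 2, mapkkk5 mock replicate 2 or 3, Col chitin replicate 1, 2 or 3, or Col mock replicate 3, with adjusted p of 0.0528 to 0.168 in those fits and 0.0177 to 0.181 over all alternatives. GSTU17 (AT1G10370), also known as ERD9, averaged 22.2 ± 1.56 CPM in mapkkk5 chitin and 21.8 ± 8.76 CPM in mapkkk5 mock, and 16.9 ± 8.23 CPM in Col chitin and 17.6 ± 6.67 CPM in Col mock, and was not called.

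Of the 4 remaining tau genes, which stand alone, GSTU9 (AT5G62480) rose by 0.45 ± 0.15 in mapkkk5 and by 0.70 ± 0.15 in Col. Its mapkkk5 call was lost under upper-quartile scaling (adjusted p = 0.0602) and without mapkkk5 chitin replicate 1 (0.0632) or 3 (0.111), or mapkkk5 mock replicate 1 (0.0941), 2 (0.0619) or 3 (0.0601), and without any 1 of the 3 experiments (0.0866 to 0.118), with 0.0067 to 0.118 over all alternatives of edgeR's quasi-likelihood test and DESeq2. GSTU8, GSTU27 and GSTU28 had log2 fold changes of -0.10 to 0.28 in either genotype and did not pass. GSTU8 passed in Col with the block (0.28, adjusted p = 0.0226, with 0.0226 to 0.675 over all alternatives).

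Added up, the 2 classes behaved differently. All 39 genes summed to 15372 ± 2220.1 CPM in mapkkk5 chitin and 4797 ± 419.6 CPM in mapkkk5 mock, and to 17289 ± 1942 CPM in Col chitin and 4887 ± 571 CPM in Col mock. The phi sum was 3.9 times as high with chitin as with mock in mapkkk5 (3.64 to 4.25 within experiments) and 4.23 times in Col (3.61 to 5.24). The tau sum was 1.03 times as high in mapkkk5 (0.965 to 1.13) and 1.16 times in Col (0.971 to 1.36). Of the 4 tau genes with the highest CPM in mock, GSTU20 and GSTU5 fell, GSTU13 rose and GSTU19 did not pass. GSTF2, GSTF3, GSTF6 and GSTF7 gave 57.3% ± 1.51 of the members' CPM in mapkkk5 chitin and 16.8% ± 2.68 in mapkkk5 mock, and 61.5% ± 0.848 in Col chitin and 19.5% ± 2.88 in Col mock. They made up 75.9% of the members' increase in mapkkk5 and 78.2% in Col, GSTF9 and GSTF10 another 22.1% and 18.9%, and all tau genes 0.327% and 1.42%.

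**Figure D4:**
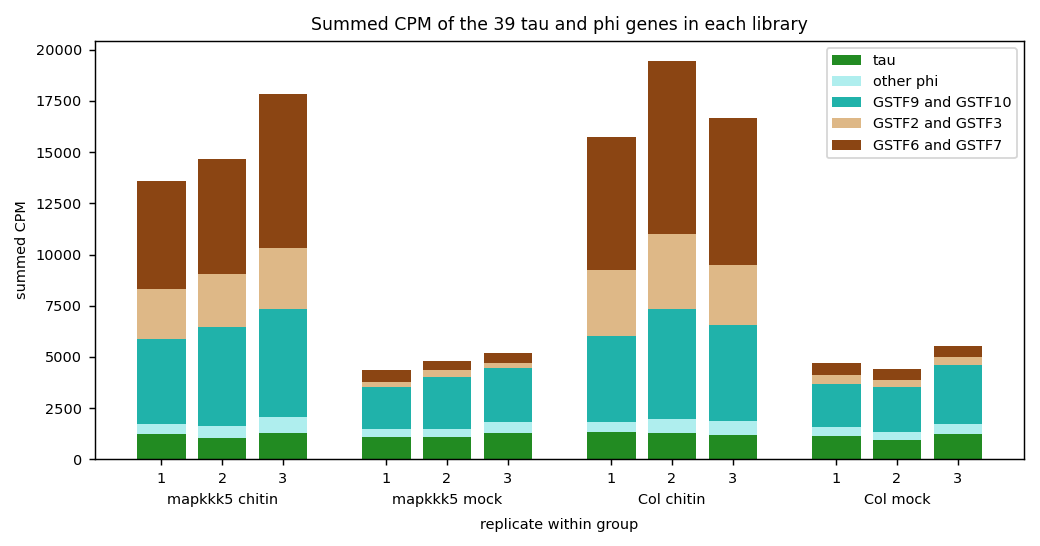
Summed CPM (y axis) of the tau and phi genes in each of the 12 libraries, stacked by gene set, with the groups from left to right mapkkk5 chitin, mapkkk5 mock, Col chitin and Col mock. The bars reach 13587 to 17858 CPM in mapkkk5 chitin against 4365 to 5203 CPM in mapkkk5 mock, and 15738 to 19467 CPM in Col chitin against 4421 to 5524 CPM in Col mock. The tau layer runs over the 12 bars from 948 CPM in a Col mock library to 1352 CPM in a Col chitin library.

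Per kb of exon, the order of the levels changed with chitin. In mapkkk5 chitin GSTF6 was highest at 3102 ± 645 CPM per kb, followed by GSTF10 at 2131 ± 118, GSTF7 at 2039 ± 382, GSTF9 at 1889 ± 375 and GSTF2 at 1795 ± 181, and each step within the last 4 was smaller than the SD of GSTF7 or GSTF9. In mapkkk5 mock GSTF9 was highest at 1101 ± 203 CPM per kb, then GSTF10 at 922 ± 66.8, which was within the spread of GSTF9, and GSTF6 followed at 321 ± 38.5. In Col chitin GSTF6 led at 3737 ± 612 CPM per kb before GSTF7 at 2429.9 ± 230.4 and GSTF2 at 2189 ± 252. In Col mock GSTF9 led at 1089 ± 252 CPM per kb before GSTF10 at 941 ± 149 and GSTF6 at 323 ± 32.4. The tau genes ranked from place 6 downwards in both chitin groups, led by GSTU19 at 331 ± 64.5 CPM per kb in mapkkk5 and 361 ± 45.1 in Col. In protein sequence GSTF3 is close to GSTF2, yet it reached 31.4 ± 5.14 CPM per kb in mapkkk5 chitin and 40.7 ± 12.1 in Col chitin, far below GSTF2.

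The genotype was compared next. In the fit without a block no member passed between mapkkk5 and Col, neither after chitin nor in mock nor averaged over the treatments, and none passed in the difference between the chitin responses (edgeR's quasi-likelihood test). Over all genes tested 0.0714%, 0.0191% and 0.0333% were called in the first 3 comparisons and 0% in the last. Of the 38 tested members, 6 had an unadjusted p below 0.05 after chitin, 2 in mock, 4 averaged and 0 in the difference. The shares of all genes tested were 6.08%, 2.21%, 8.16% and 1.31%. In the averaged comparison DESeq2 called GSTF2, and the fit with the experiment as a block called GSTF2 (adjusted p = 0.0485) and GSTF12 (adjusted p = 0.0178); neither called a member in the other 3. After chitin 25 of 38 members were below Col, with a median difference of -0.08 against -0.01 over all genes, and in mock 18 of 38 were, with 0.01 against 0.00.

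The smallest p-values after chitin belonged to GSTU4, GSTU11 and GSTU1, whose library values are given above. GSTU4 was lower in mapkkk5 by 0.46 ± 0.14 (adjusted p = 0.674, edgeR's quasi-likelihood test), with its 3 mapkkk5 libraries below the 3 of Col. GSTU11 differed by -0.84 ± 0.32 (adjusted p = 0.792), also without overlap, and GSTU1 by -0.50 ± 0.20 (adjusted p = 0.794) with overlap. Of the 38 tested members 3 were below Col without overlap after chitin, GSTU4, GSTU9 and GSTU11, and in each the gap failed the adjusted test. Of all genes tested 5.62% were without overlap in that direction and 3.69% in the other, where no member stood.

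In mock the smallest p-values were those of GSTF2, GSTF7 and GSTF13. GSTF2 differed by -0.47 ± 0.13 (unadjusted p = 0.0031, adjusted p = 1 by edgeR's quasi-likelihood test), lower in mapkkk5 in all 3 libraries. GSTF7 differed by -0.32 ± 0.14 and GSTF13, which was at 5.26, 6.83 and 6.31 CPM in the mapkkk5 chitin libraries, against 6.57, 7.69 and 6.37 CPM in mapkkk5 mock, and at 6.27, 7.07 and 5.93 CPM in the Col chitin libraries, against 5.91, 4.95 and 6.08 CPM in Col mock, by 0.29 ± 0.16, both with an adjusted p of 1. Libraries did not overlap for 7 of the 38 tested members in mock. Below Col were GSTF2, GSTF3, GSTF7, GSTU21 and GSTU22, and above it GSTF11 and GSTF13, beside 3.97% of all genes below and 4.13% above.

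Averaged over the treatments, GSTF2 had -0.38 ± 0.09 (adjusted p = 0.388, edgeR's quasi-likelihood test), GSTU4 -0.38 ± 0.12 (0.526) and GSTF7 -0.29 ± 0.10 (0.554). With the experiment as a block GSTF2 passed at -0.38 ± 0.08 (adjusted p = 0.0485), and by DESeq2 at -0.38 ± 0.09 (adjusted p = 0.0111), within 0.0111 to 1 over the 20 alternatives. GSTF12 was 0.60 ± 0.30 (adjusted p = 0.631) without the block and passed with it at 0.61 ± 0.10 (adjusted p = 0.0178), within 0.0178 to 1 over the alternatives, and was higher in mapkkk5 in each of the 3 experiments in both treatments. In the difference of responses the smallest p-values were those of GSTU25 (-0.64 ± 0.32, unadjusted p = 0.0612), GSTU3 (-2.13 ± 1.16, 0.0888) and GSTF13 (-0.35 ± 0.22, 0.14), all with an adjusted p of 1 in edgeR's quasi-likelihood test. The value of GSTU3 rests on the 10 reads in mapkkk5 mock replicate 2 and was 0.36 without experiment 2.

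**Figure D5:**
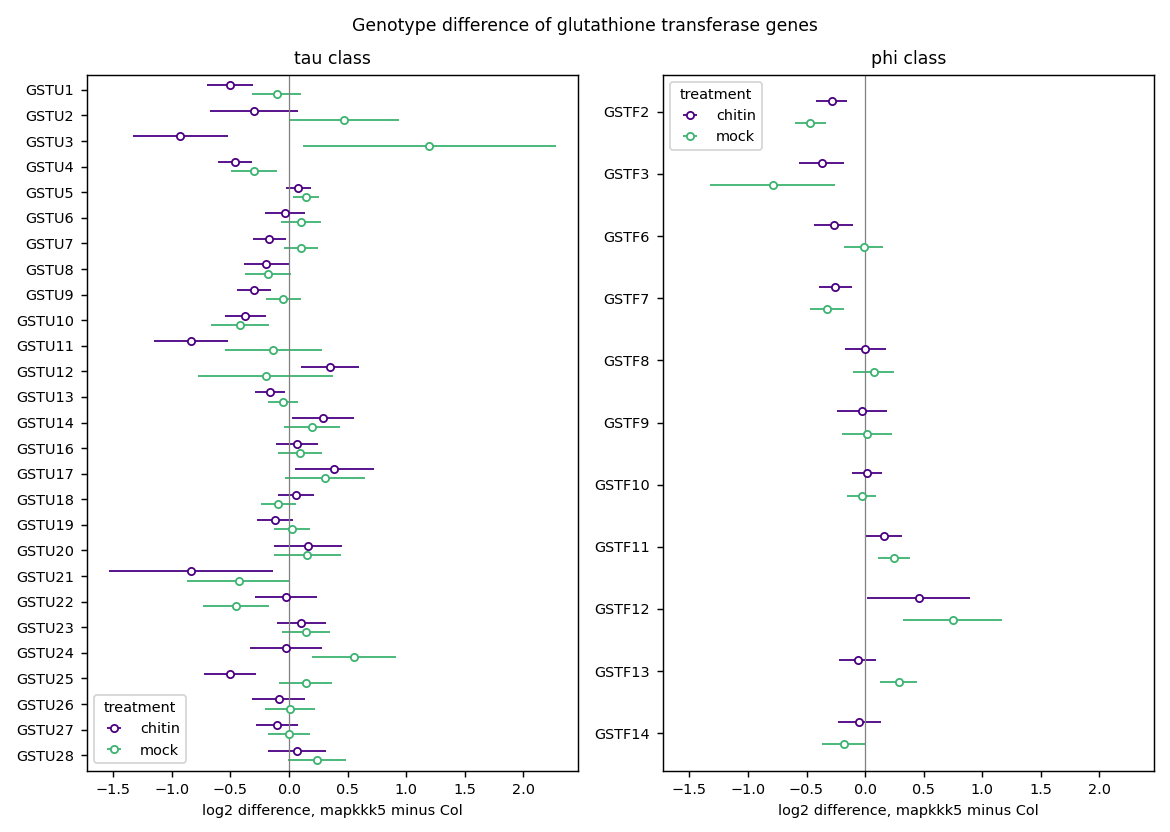
Log2 difference of mapkkk5 minus Col (x axis) for each tested tau gene (left) and phi gene (right), after chitin (upper point of each pair) and in mock (lower point), with bars of 1 SE from 3 libraries per group. All points are open because none passed an adjusted p of 0.05. GSTU3 in mock has the widest bar, at 1.20 ± 1.08.

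The pathway around the transferases was read from lists of genes. Of 17 tested genes of glutathione synthesis, turnover and reduction 12 rose and 0 fell in each genotype (70.6% called), with a median of 0.46 in mapkkk5 and 0.48 in Col. Over all genes tested 19.1% rose and 15.7% fell in mapkkk5, 21.2% rose and 17.3% fell in Col, and the median was 0.00 in both, which also applies to the lists that follow. GSH2, glutathione synthetase, rose by 1.09 ± 0.09 in mapkkk5 and by 1.14 ± 0.09 in Col. GGT1, an enzyme that breaks down glutathione outside the cell, rose by 0.71 ± 0.14 in mapkkk5 and by 1.41 ± 0.14 in Col, and the difference of these responses did not pass (-0.70 ± 0.19, adjusted p = 1, edgeR's quasi-likelihood test). Of 14 genes that assimilate sulfate and make cysteine, a building block of glutathione, 8 rose and 1 fell in each genotype (64.3% called), with a median of 0.44 in mapkkk5 and 0.52 in Col. SERAT2;1, a serine acetyltransferase, rose by 1.62 ± 0.14 in mapkkk5 and by 1.87 ± 0.14 in Col. The ATP sulfurylase genes APS1 and APS2 went opposite ways, APS1 with 1.25 ± 0.15 in mapkkk5 and 1.38 ± 0.15 in Col, and APS2 with -0.31 ± 0.10 in mapkkk5 and -0.34 ± 0.10 in Col.

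Of 14 genes of other glutathione transferase classes 3 rose and 1 fell in mapkkk5 (28.6% called, against 34.8% of all genes), and 4 rose and 1 fell in Col (35.7%, against 38.5%), with medians of 0.06 in mapkkk5 and 0.09 in Col. GSTL1 of the lambda class rose by 2.36 ± 0.23 in mapkkk5 and by 3.24 ± 0.24 in Col. GSTZ1, which acts in tyrosine breakdown, rose by 0.97 ± 0.13 in mapkkk5 and by 1.04 ± 0.13 in Col. GSTL2 fell by 0.52 ± 0.11 in Col and did not pass in mapkkk5 (-0.25 ± 0.11), where the gene that fell was another of this list. Among 4 genes for ABCC transporters of conjugates 1 rose, ABCC3, by 0.94 ± 0.14 in mapkkk5 and by 1.30 ± 0.14 in Col. Of the 3 TGA factor genes of clade II, TGA5 rose by 0.69 ± 0.12 in mapkkk5 and by 0.67 ± 0.12 in Col, and TGA6 rose in Col (0.52 ± 0.14) without passing in mapkkk5 (0.31 ± 0.14).

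The 300 bases before the start were searched on both strands for 3 motifs, for all 39 members and 26711 protein-coding genes of the count table. TGACG, the core of the as-1 element, was found before 17 of 39 members (43.6%), against 21.3% of all genes. TTGAC, the W-box core, was found before 25 of 39 members (64.1%), against 50.4% of all genes, and the G-box CACGTG before 3 (7.69%), against 7.18%. Some of these windows overlap a neighbouring gene, such as GSTU1 in the window before GSTU2 and GSTU17 in that before GSTU18. Such overlaps were not taken out. TTGAC and TGACG can share letters where they overlap as TTGACG. By response, TGACG stood before 9 of the 19 members that rose, 2 of the 8 that fell and 6 of the other 12, and TTGAC before 14, 5 and 6 of these. Tandem neighbours with like sequence are not independent of each other, and a match describes letters in the window and not a bound site.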

How the data were processed

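RNA-seq libraries of whole seedlings were made from poly(A) RNA with a directional kit, per the labels' protocols. The authors deposited raw read counts per gene for 12 libraries. The submitters' notes on processing list CASAVA 1.8.2, cutadapt 1.5, TopHat2 2.0.10, HTSeq 0.6.1 and the build TAIR10 without settings, and how counting treated the strand is not stated in the sources used here. Counts were tested in R 4.3.3 with edgeR 4.0.16 (filterByExpr, TMM, 1 quasi-likelihood model of 4 groups, 8 residual degrees of freedom, Benjamini-Hochberg over 20994 genes, threshold 0.05, no fold limit). SE is the absolute log2 fold change divided by the square root of F. The alternatives were RLE and upper-quartile scaling, no filter, DESeq2 1.42.0, a replicate block, summed near-identical pairs (protein identity of at least 85%) and leaving out each library or experiment.

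Positions, exon lengths and promoters (300 bases before the gene start) come from RefSeq TAIR10.1, in which 31912 of the 32678 identifiers were found, all 39 members among them. Promoter letters are as RefSeq gives them. Tandem groups allow at most 5 other protein-coding genes between members.

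All members are accounted for. Values in every library are given for the 12 members with the largest mean rise called in both genotypes, the 6 with the largest falls, the 3 with the smallest p in each genotype comparison, near-identical pairs and undetected members; GSTF12 was shown in addition after its values were seen. The members and lists were chosen with earlier results of these data known.

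Replicate numbers 1 to 3 recur in all groups and the design text names 3 experiments. Of 18 same-numbered pairs of libraries 17 correlated above 0.1 in their deviations from group means (-0.0423 to 0.509), among them all 12 pairs within the comparisons, so the numbers were taken to pair libraries. For replicate 1 the evidence was weaker. The first mapkkk5 chitin library correlated at 0.156 with mapkkk5 mock of its number and at up to 0.143 with those of other numbers. With Col mock these values were -0.0423 and 0.0505. The fit behind "rose" and "fell" nevertheless has no block and leaves the pairing by number out. The member calls that the block changed are given with each member. No 2 replicates agreed within counting error, with chi-square values of 10.7 to 26.5 per degree of freedom. Where the independence of the experiments is only as the labels state it, p-values measure the spread between these libraries.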

Additional observations from a re-analysis of the deposited data

Results flagged for a closer look

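GSTU2 was the only member whose genotype difference had one sign in every experiment after chitin and the other sign in every experiment in mock. The log2 difference of mapkkk5 minus Col, as the ratio of CPM within each experiment, was -0.58, -0.27 and -0.08 after chitin and 1.11, 0.19 and 0.10 in mock. The difference between the chitin responses was -0.77 in edgeR's quasi-likelihood model and did not pass (adjusted p = 1). At 0.409 to 3.40 CPM the gene is read from few counts. How many of all genes show this pattern of signs was not counted. The pattern is therefore given as a description and is not read as a difference between genotypes.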

How the results depend on the processing

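Over the chitin folds of members that rose or fell and the 3 leading members of each genotype comparison, 1336 alternative values kept direction and side of the threshold, 41 lost and 2 gained the call (calls gained by other members are given above), and 1 reversed: the difference of responses of GSTU3, -2.13, was 0.36 without replicate 2 in all groups. Leaving out libraries or experiments, 16 to 20 members rose and 4 to 9 fell in mapkkk5, and 18 to 20 rose and 5 to 8 fell in Col; the low counts of fallen members came without replicate 1 in all groups. Without 1 experiment in all groups the calls of GSTU2, GSTU5, GSTU9, GSTU14, GSTU18, GSTU20, GSTU21 and GSTF9 were lost in at least 1 genotype (adjusted p = 0.05 to 0.181); the fits then hold 8 libraries.

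With the replicate block, which follows the pairing of the libraries by experiment, 20 members rose and 9 fell in mapkkk5 and 22 rose and 9 fell in Col. Averaged over treatments 2 members were called with the block, 1 higher and 1 lower in mapkkk5, and 1 with DESeq2, lower, against 0; it changed no other call between genotypes. The cause was not tested.

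Counts over all genes moved by more than 1.5 times in some fits. For chitin in mapkkk5, 7308 genes became 4837 without experiment 2 and 4762 without experiment 3, and for chitin in Col 8083 became 5385 without experiment 1. Between genotypes after chitin 15 became 61 with DESeq2, 96 with the block and 23 with no filter; in mock 4 became 7 with either DESeq2 or the block; averaged, 7 became 56, 104 and 16; in the difference, 0 became 4, 2 and 1. Leaving out libraries or experiments gave 0 to 23, 0 to 9, 3 to 20 and 0 to 2 in these 4 comparisons. Upper-quartile scaling moved the median of all genes by -0.08 in mapkkk5 and -0.11 in Col, the share raised of called genes falling to 43.5% and 41.7%, against 55% and 55.2%, and 37 and 36 of 38 members kept their sign. Depth limits GSTU21 after chitin (7 and 12 reads per group) and GSTU2, GSTU3, GSTU12 and GSTF3 in mock (5 to 45 reads per group).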
